A study of Mus musculus with 20 samples.

Results

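The genes described here are 38 genes of mitosis and of the G2/M transition, the step at which a cell that has copied its DNA enters division. They comprise mitotic kinases, the chromosomal passenger complex, centromere and kinetochore proteins, the spindle checkpoint, the anaphase-promoting complex and securin, spindle motors and microtubule-binding proteins, chromosome structure proteins and a cytokinesis scaffold. Members were found by matching the accession of every non-control probe on the array to RefSeq gene symbols, and all probes of a gene were kept. Of 41174 probes, 53 belonged to members and covered 37 of the 38 genes. No probe was matched to Incenp, the scaffold of the chromosomal passenger complex. Of the 53 probes, 52 were tested, all but 1 of the 2 Kif11 probes, and 15 genes had more than 1 probe. Unless another probe is named, a gene is described by its tested probe with the highest mean signal, called its brightest probe.

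Mouse embryonic fibroblasts (MEFs), connective tissue cells from mouse embryos, were kept for 24 h with serum from female mice of the inbred strain C3H/HeN, and their RNA was then measured on microarrays. The 20 arrays fell into 4 groups of 5. In a 10-day set, control serum came from non-irradiated mice (0 Gy) and 4 Gy serum from irradiated mice. In a 20-day set, control serum came from non-irradiated mice (0 Gy) and 8 Gy serum from irradiated mice. The fibroblasts themselves were not irradiated, the irradiation regime is named only as L/MDR, and dose and set change together. The labels leave unsaid what the 10 and 20 days refer to, which strain the MEFs came from, and whether replicates were separate cultures or serum donors. The p-values thus reflect the scatter among arrays alone, part of which may be technical.

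Entry into mitosis is driven by cyclin-dependent kinase 1 with its B-type cyclins. Polo-like and Aurora kinases then build the spindle, kinetochores tie chromosomes to microtubules, and the spindle checkpoint holds back the anaphase-promoting complex until every chromosome is attached. Transcripts of these genes accumulate late in the cell cycle and are kept low in resting cells, so in fibroblast cultures their summed level is widely read as a sign of how many cells are dividing. In a bulk culture, fewer dividing cells and less transcript per cell cannot be told apart.

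Many G2/M promoters carry a cell cycle genes homology region, whose core letters are TTTGAA and which is bound by the DREAM and B-MYB-MuvB complexes, and CCAAT boxes, which are bound by NF-Y. In RefSeq promoter sequences of GRCm38.p6 (250 bases before to 50 bases after a transcript start), 32 members had an entry, with 33 promoters. TTTGAA was present on either strand in 25 of these 33 promoters (75.8%), against 17.9% of all 32851 promoters of the same length. CCAAT was present on either strand in 25 of 33, against 37.4% of all promoters, and both motifs in 22 of 33 (66.7%), against 6.95%. Of the 24 members with TTTGAA, 19 had it within 40 bases of the start. A match is a run of letters and not evidence of binding. The 120 bases before the start are shown for members that fell with 8 Gy serum (Cdc20, Prc1 and Kif11). Top2a, which rose, and Cdk1 and Ube2c, which passed no threshold in that comparison, are shown as well. All were picked from members with TTTGAA in the last 40 of these bases, so its presence in each was fixed by that choice. Ncapg met the same rule, without CCAAT in the 120 bases, and is not shown. Capitals mark TTTGAA or its reverse complement TTCAAA, and CCAAT or its reverse complement ATTGG. The sequences run 5′ to 3′ on the strand of the gene.
Cdc20, chr4:118437344-118437463, minus strand: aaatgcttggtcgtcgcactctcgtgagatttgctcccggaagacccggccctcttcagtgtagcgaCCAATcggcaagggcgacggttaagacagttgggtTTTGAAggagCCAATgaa
Prc1, chr7:80294356-80294475, plus strand: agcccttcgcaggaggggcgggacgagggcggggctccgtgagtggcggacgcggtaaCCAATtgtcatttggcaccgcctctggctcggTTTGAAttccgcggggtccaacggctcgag
Kif11, chr19:37376262-37376381, plus strand: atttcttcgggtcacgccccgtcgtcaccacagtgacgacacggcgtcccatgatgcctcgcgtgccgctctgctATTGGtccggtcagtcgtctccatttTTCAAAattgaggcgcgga
Top2a, chr11:99024190-99024309, minus strand: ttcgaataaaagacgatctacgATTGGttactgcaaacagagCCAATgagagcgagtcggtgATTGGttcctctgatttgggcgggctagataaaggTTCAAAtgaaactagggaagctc
Cdk1, chr10:69352913-69353032, minus strand: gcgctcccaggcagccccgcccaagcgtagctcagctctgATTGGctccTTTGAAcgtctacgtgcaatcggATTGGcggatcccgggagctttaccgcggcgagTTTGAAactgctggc
Ube2c, chr2:164769809-164769928, plus strand: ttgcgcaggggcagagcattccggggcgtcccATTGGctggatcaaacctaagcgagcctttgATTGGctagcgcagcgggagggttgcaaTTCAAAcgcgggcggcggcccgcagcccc
The share of promoters with TTTGAA was 10 of 15 for members that fell with 8 Gy serum, 3 of 3 for those that rose and 12 of 15 for those past no threshold, so the motif was found in all 3 classes.

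Signals are given as log2 of the processed intensity minus log2 of each array's 75th percentile. Between 56.8% and 67.2% of probes per array were well above background. No spot was saturated, and the 75th percentile of an array ranged from 731 to 1464 in units of intensity. All 16 fibroblast marker genes were well above background on every array of every group, with a summed linear signal between 1233 and 1659 times the 75th percentile. Of 19 macrophage markers 17 were measured. Their summed signal was 3.10 to 4.91 on the 10-day arrays and 83.8 to 115 on the 20-day arrays. In each 10-day group 15 of the 17 were well above background on all 5 arrays. Spi1, which encodes the macrophage transcription factor PU.1, was so on no 10-day array. The arrays lay on 7 slides, and the sets were scanned on 2 different days, so set, slides and scan day cannot be told apart. Each 20-day slide held 1 serum group only. In the 10-day set slide 2 held 1 control array and 2 arrays with 4 Gy serum, and was the only slide with both groups.

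Over the 20 arrays, the median deviation of the 37 members from their own means was −0.02 to 0.49 on the control arrays and 0.08 to 0.48 on the 4 Gy arrays of the 10-day set. It was −0.17 to 0.02 on the control arrays and −0.37 to −0.24 on the 8 Gy arrays of the 20-day set. All 5 arrays with 8 Gy serum thus lay below the other 15 in this median, and all 5 control arrays of the 20-day set lay below 9 of the 10 arrays of the 10-day set. The same median over all named genes was 0.06 to 0.15 on the 20-day control arrays and −0.04 to 0.02 on the 8 Gy arrays. Over all named genes, too, every 8 Gy array thus lay below every 20-day control array. On the 10-day arrays this median was −0.04 to −0.001. By group means, the 8 Gy group was the lowest of the 4 groups for 21 members and the highest for 0, the 20-day controls were lowest for 10 and highest for 10, the 10-day controls lowest for 4 and highest for 12, and the 4 Gy group lowest for 2 and highest for 15. Members varied together, with a median Pearson correlation between pairs of 0.44 over the 20 arrays, positive in 543 of 666 pairs. It was 0.43 for deviations from the group means, which still hold differences between the slides of a group. No such value was computed for other genes, so neither correlation can be set against a background. The arrays share slides and set, and the lowest correlation was −0.76, between Birc5 and Hmmr.

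**Figure D1:**
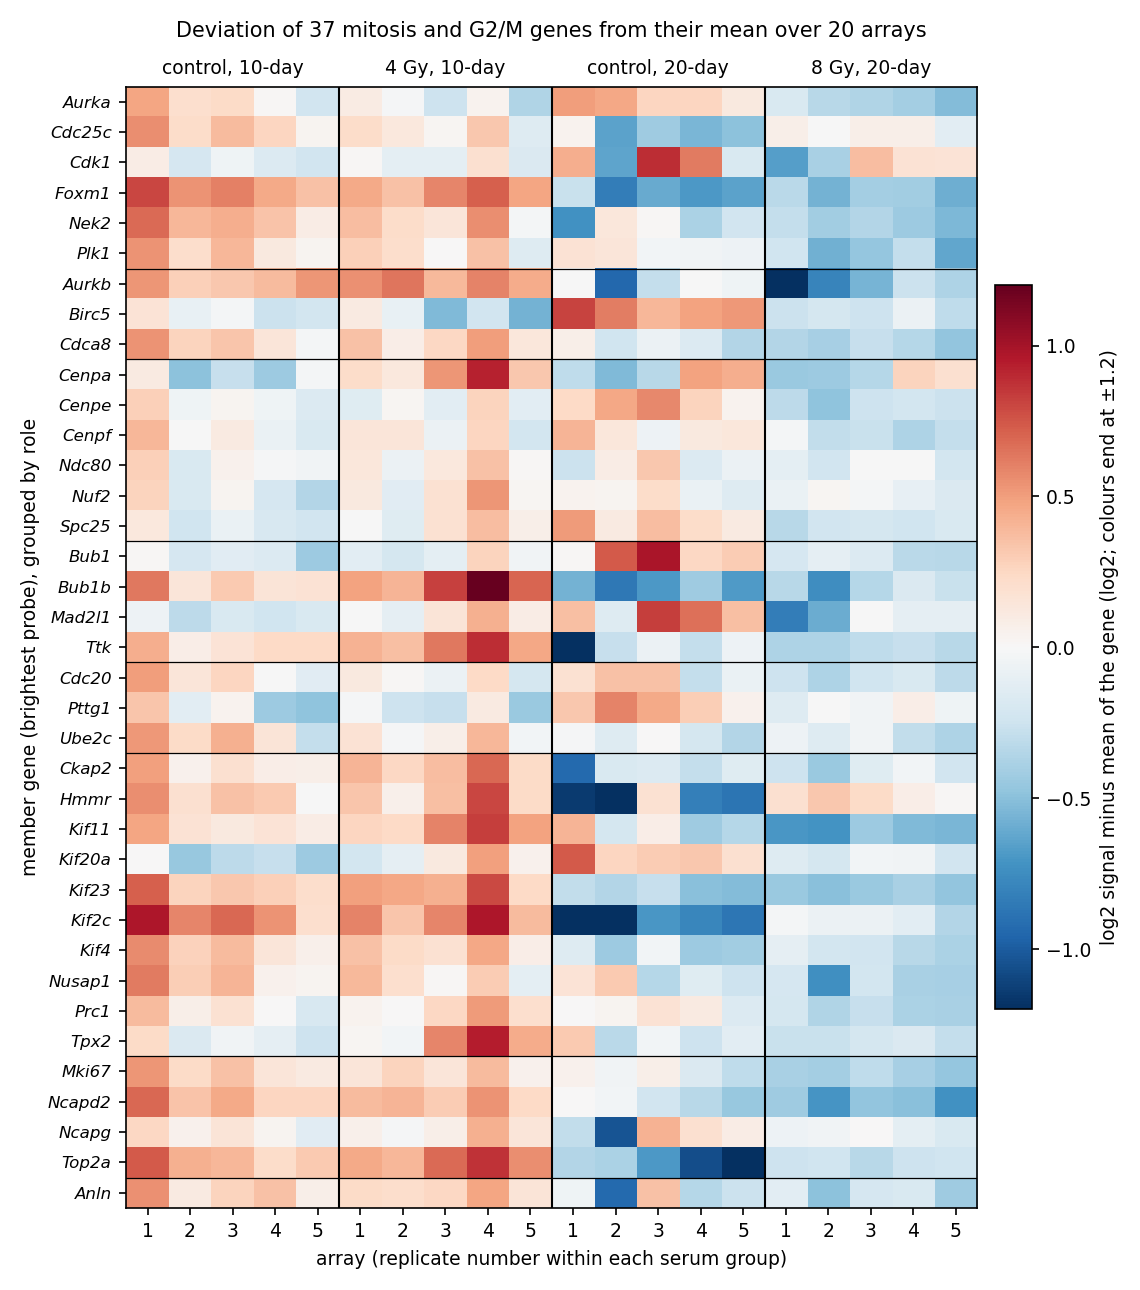
Signal of the 37 member genes (rows, brightest probe, grouped by role) on the 20 arrays (columns, replicate numbers within the 4 serum groups) as the log2 difference from the mean of the gene, with red higher and blue lower. The 10-day arrays are mostly red and the 8 Gy arrays mostly blue, with per-array medians of −0.02 to 0.49 in the first and −0.37 to −0.24 in the second, while the 20-day control arrays hold both colours.

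The comparison of 8 Gy serum with control serum in the 20-day set asks how these transcripts differed between the cultures. No slide of this set held both serum groups, so a difference between sera cannot be told apart from a difference between slides. With 8 Gy serum 15 of 37 members (40.5%) fell and 4 (10.8%) rose (limma, Benjamini-Hochberg adjusted p of at most 0.05 over all tested probes). Of all 12909 named genes 32.8% fell and 16.1% rose, so the members' shares were near the background. The median log2 change was −0.22 for the members, −0.13 for all named genes and −0.06 for all tested probes. The members that fell spanned kinases, kinetochore proteins, the checkpoint, the anaphase-promoting complex, motors and chromosome proteins, and those that rose were Hmmr, Kif2c, Top2a and Cdc25c. Of 9 members every 8 Gy array lay below every control array (21.9% of named genes did so), and of Kif2c and Top2a every 8 Gy array lay above (8.68%). The falls depended on the scaling. They numbered 7 (18.9% of members) beside 4 rises with quantile normalisation, where 24.2% of all tested probes fell, and 9 (24.3%) beside 4 with cyclic loess, where 23.4% of probes fell, so under both the share of members was near or below that of the array. They numbered 10 (27.0%) beside 5 with normexp and 8 (21.6%) beside 3 with the slide as a random block, where 23.1% and 18.4% of probes fell. When arrays were scaled to their median they numbered 18 (48.6%) beside 2, where 37.9% of probes fell, against 27.4% of probes with the 75th percentile. Called under all 5 of these settings were Birc5, Cenpe, Mad2l1 and Spc25, which fell, and Hmmr and Kif2c, which rose. Of the 17 macrophage markers 6 were lower and 0 higher with 8 Gy serum, with a summed signal of 83.8 to 96.3 against 93.9 to 115 in the controls. Of 7 tested endothelial markers 5 were lower and 0 higher (median −0.27), with a summed signal of 0.996 to 1.17 against 1.16 to 1.69. Of 10 measured endothelial markers 6 were well above background on all 5 control arrays and 5 on all 5 arrays with 8 Gy serum. Pecam1, Cdh5, Tie1 and Cldn5 were so on no 20-day array. Of 6 skeletal muscle markers 1 was lower and 2 higher, among them Des (0.92 ± 0.10), and of 16 fibroblast markers 2 were lower and 4 higher. Their part in the members' changes was not tested.

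**Figure D2:**
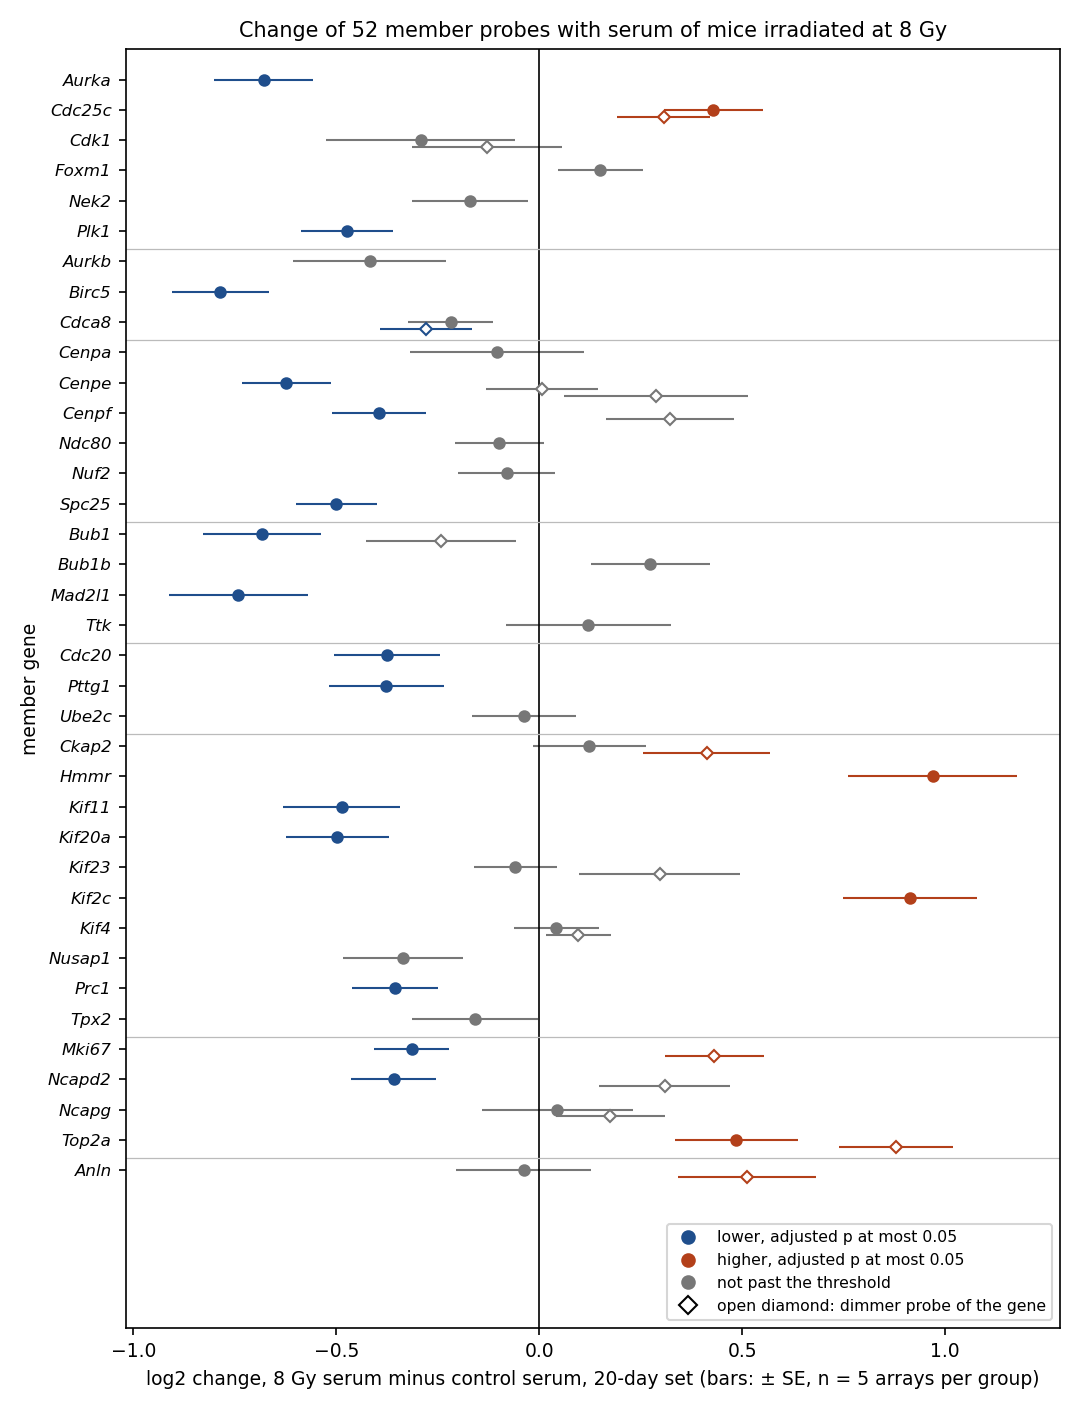
Log2 change with 8 Gy serum against control serum of the 20-day set for the 52 tested member probes (points, with bars of ± SE, 5 arrays per group), by gene and in the order of roles. Filled circles are the brightest probe of a gene and open diamonds its dimmer probes; 15 brightest probes are called lower and 4 higher, and most diamonds lie to the right of their circle.

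Among the mitotic kinases, Aurka and Plk1 fell. Aurka (chromosome 2, 172356190 to 172370886), the kinase that matures centrosomes, had signals of 4.41, 4.38, 4.17, 4.17 and 4.03 on the 5 control arrays and 3.74, 3.58, 3.55, 3.51 and 3.40 on the 5 arrays with 8 Gy serum. The groups did not overlap, and the log2 change was −0.68 ± 0.12 (SE, limma adjusted p = 0.000166). Plk1 (chromosome 7, 122159435 to 122169884), the polo-like kinase of mitotic entry, had signals of 3.66, 3.64, 3.45, 3.44 and 3.43 with control serum and 3.25, 2.91, 3.02, 3.20 and 2.86 with 8 Gy serum. These groups did not overlap either, and the change was −0.47 ± 0.11 (adjusted p = 0.00221). Both were called whichever array or slide was left out, but Plk1 was lost with quantile normalisation and both were lost with normexp. Cdc25c, the phosphatase that activates Cdk1, went the other way. Its signals were −0.92, −1.60, −1.39, −1.52 and −1.46 with control serum and −0.90, −0.97, −0.89, −0.89 and −1.09 with 8 Gy serum. One control array, replicate 1, lay within the range of the 8 Gy arrays and the other 4 below it. The change was 0.43 ± 0.12 (adjusted p = 0.00728), and 0.31 ± 0.11 (adjusted p = 0.0337) for the dimmer Cdc25c probe. Without slide 6 the first of these was 0.38 with an adjusted p of 0.103. The other kinases and the transcription factor Foxm1, a driver of G2/M transcription, passed no threshold, with changes of −0.29 ± 0.23 for Cdk1, the kinase of mitotic entry itself, −0.17 ± 0.14 for the centrosome kinase Nek2 and 0.15 ± 0.10 for Foxm1.

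In the chromosomal passenger complex, which corrects faulty attachments and guides cytokinesis, Birc5 fell. Birc5 (chromosome 11, 117849237 to 117855743) encodes survivin. Its signals were 6.17, 5.98, 5.76, 5.84 and 5.87 with control serum and 5.10, 5.15, 5.11, 5.29 and 5.05 with 8 Gy serum. The lowest control array lay 0.47 above the highest 8 Gy array, and the change of −0.79 ± 0.12 (adjusted p = 3.4e-05) had the smallest p of any member. On the 10-day arrays Birc5 lay between 4.79 and 5.52, so the 20-day controls stood above the other 3 groups. Aurkb, the kinase of the complex, changed by −0.42 ± 0.19 (adjusted p = 0.0747) and Cdca8, which encodes borealin, by −0.22 ± 0.10 (adjusted p = 0.0945), both short of the threshold. The dimmer Cdca8 probe was called lower (−0.28 ± 0.11, adjusted p = 0.0477), and with the replicate number as a block the brightest probe of Cdca8 and that of Nusap1 were called lower as well.

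At the centromere and kinetochore, 3 of 6 members fell and none rose. Cenpe (chromosome 3, 135212563 to 135273540), a kinetochore motor that aligns chromosomes, had signals of 4.07, 4.29, 4.41, 4.10 and 3.87 on its brightest probe with control serum and 3.51, 3.35, 3.59, 3.61 and 3.58 with 8 Gy serum. Every 8 Gy array was below every control array, and the change was −0.62 ± 0.11 (adjusted p = 0.000129). Spc25 (chromosome 2, 69193895 to 69206213), a subunit of the Ndc80 complex that binds microtubules, had signals of 2.25, 1.85, 2.11, 1.96 and 1.85 with control serum and 1.41, 1.51, 1.53, 1.51 and 1.56 with 8 Gy serum. The 8 Gy arrays were again all lower, with a change of −0.50 ± 0.10 (adjusted p = 0.000488). The other members of the same complex moved less, with −0.10 ± 0.11 for Ndc80 and −0.08 ± 0.12 for Nuf2, neither past the threshold. Cenpf, a late-G2 kinetochore protein, fell by 0.39 ± 0.12 on its brightest probe (adjusted p = 0.00868), and Cenpa, the centromeric histone H3 variant, changed by −0.10 ± 0.21 (adjusted p = 0.716). In both 20-day groups the Cenpa signal was higher on replicates 4 and 5 (1.00 and 0.96 with control serum, 0.80 and 0.72 with 8 Gy serum) than on replicates 1 to 3 (at most 0.22 and 0.18), and in each group replicates 4 and 5 shared one slide and replicates 1 to 3 another.

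Of the spindle checkpoint genes, Bub1 and Mad2l1 fell while Bub1b and Ttk passed no threshold. Bub1 (chromosome 2, 127800197 to 127831859), a checkpoint kinase, had signals of 0.60, 1.32, 1.56, 0.83 and 0.88 with control serum and 0.38, 0.47, 0.42, 0.26 and 0.25 with 8 Gy serum. The control arrays were spread widely but all lay above the 8 Gy arrays, and the change was −0.68 ± 0.15 (adjusted p = 0.000803). Mad2l1 (chromosome 6, 66535221 to 66541107), which encodes the MAD2 inhibitor of Cdc20, had signals of 1.35, 0.84, 1.83, 1.65 and 1.35 with control serum and 0.17, 0.40, 0.98, 0.88 and 0.88 with 8 Gy serum. Here the groups overlapped, since control replicate 2 lay below 3 of the 8 Gy arrays, and the change was −0.74 ± 0.17 (adjusted p = 0.00158). Without slide 6 it was −0.52 with an adjusted p of 0.0509. Bub1b, which encodes BUBR1, changed by 0.27 ± 0.15 (adjusted p = 0.133) and Ttk, the MPS1 kinase, by 0.12 ± 0.20 (adjusted p = 0.648).

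Cdc20 and Pttg1, partners that the checkpoint and the anaphase-promoting complex act through, were both called lower in the main fit. Cdc20, the activator of that complex, fell by 0.37 ± 0.13 (adjusted p = 0.0234) and Pttg1, which encodes securin, by 0.38 ± 0.14 (adjusted p = 0.0354), whereas its ubiquitin-conjugating enzyme Ube2c changed by −0.04 ± 0.13 (adjusted p = 0.827). In both, the groups overlapped, with Cdc20 at 4.33 to 4.98 with control serum and 4.25 to 4.44 with 8 Gy serum, and Pttg1 at 3.60 to 4.14 and 3.40 to 3.63. Among the brightest probes, these were the only calls of this comparison that single arrays decided. Without control replicate 2, for example, Cdc20 was at −0.31 (adjusted p = 0.0632) and Pttg1 at −0.31 (adjusted p = 0.0885). Both calls were also lost with the slide as a random block, quantile normalisation, cyclic loess and normexp, and without slide 4, 6 or 7. Without slide 4 the limma change was −0.09 for Cdc20 (adjusted p = 0.638) and −0.20 for Pttg1 (adjusted p = 0.378).

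The spindle motors and microtubule-binding proteins went both ways, with 3 of 10 lower and 2 higher. Kif20a, the kinesin MKLP2 that brings Aurora B to the midzone, had signals of 3.43, 2.96, 3.00, 3.02 and 2.89 with control serum and 2.55, 2.49, 2.66, 2.66 and 2.46 with 8 Gy serum. No array overlapped, and the change was −0.50 ± 0.13 (adjusted p = 0.00326). Kif11, the kinesin Eg5 that separates spindle poles, fell by 0.49 ± 0.14 (adjusted p = 0.00899) and Prc1, the microtubule bundler of the midzone, by 0.36 ± 0.11 (adjusted p = 0.00966). Without slide 4 the change was −0.20 for Kif11 (adjusted p = 0.257) and −0.30 for Prc1 (adjusted p = 0.0954).

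Hmmr and Kif2c had the largest rises of any member. Kif2c (chromosome 4, 117159633 to 117182624), the microtubule-depolymerising kinesin MCAK, had signals of −2.23, −2.04, −1.40, −1.48 and −1.56 with control serum and −0.72, −0.78, −0.77, −0.82 and −1.06 with 8 Gy serum. All 8 Gy arrays were higher, and the change was 0.91 ± 0.16 (adjusted p = 0.000179), a fold of 1.88. Hmmr (chromosome 11, 40701388 to 40733464), a spindle and hyaluronan-binding protein, had signals of −3.22, −3.42, −1.89, −2.89 and −2.94 with control serum and −1.88, −1.74, −1.84, −1.99 and −2.06 with 8 Gy serum. Control replicate 3 fell within the 8 Gy range and the other 4 control arrays well below it, and the change was 0.97 ± 0.21 (adjusted p = 0.000853), a fold of 1.96. In the 10-day set both genes lay above these values or level with them, with Kif2c between −0.50 and 0.27 and Hmmr between −2.08 and −1.27, so the 20-day controls had the lowest mean. The remaining members of this group passed no threshold on their brightest probe, with changes from −0.34 for Nusap1 to 0.12 for Ckap2.

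**Figure D3:**
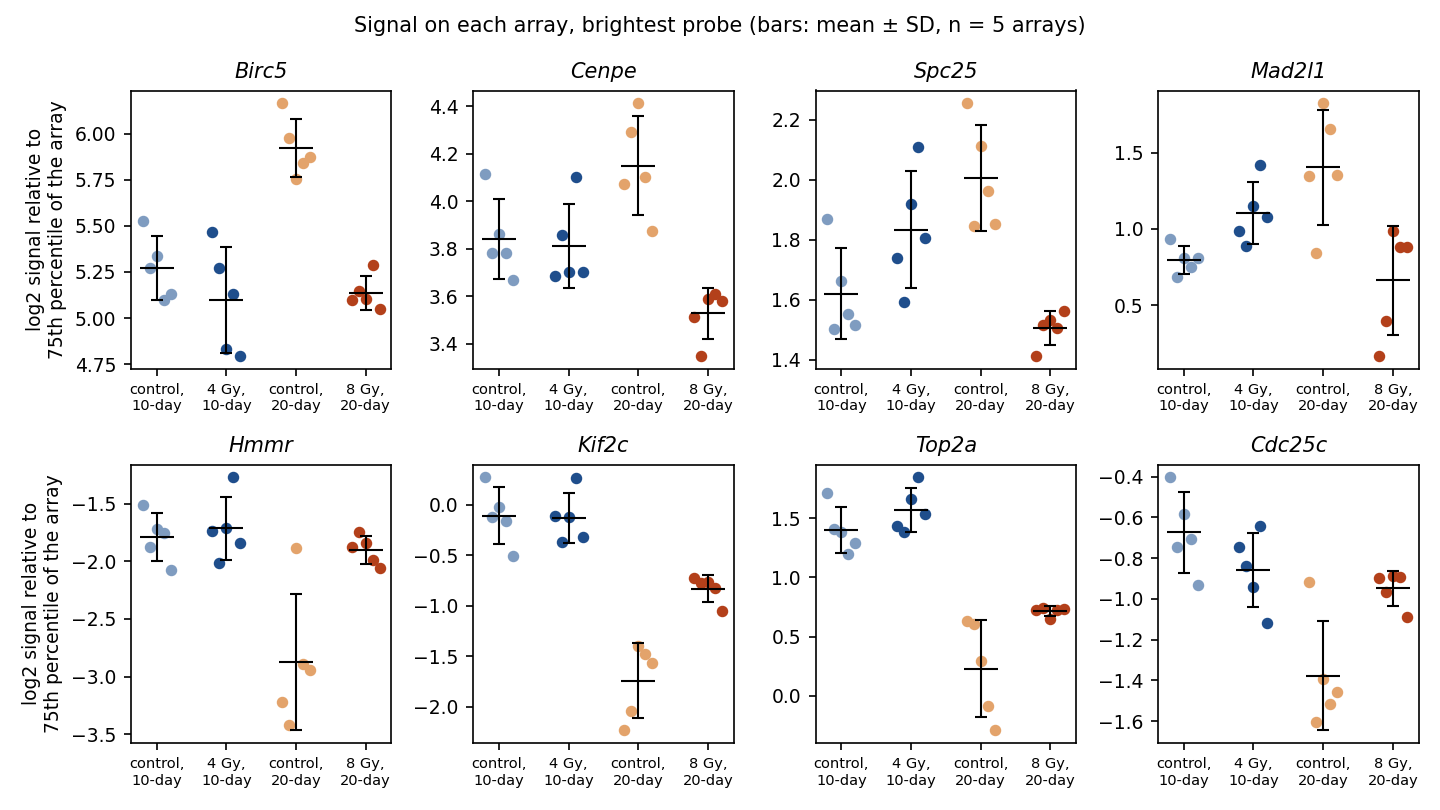
Log2 signal minus each array's 75th percentile, for the brightest probe of 8 members in the 4 serum groups (points are arrays, bars mean ± SD of 5 arrays). In the upper row the 20-day control arrays stand above the 8 Gy arrays, with an overlap for Mad2l1 only; in the lower row most 20-day control arrays stand below them, with 1 control array of Hmmr and of Cdc25c in the 8 Gy range.

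Among the genes of mitotic chromosome structure, Top2a (chromosome 11, 98992947 to 99024199), which encodes the topoisomerase that untangles sister chromatids, rose. Its brightest probe had signals of 0.63, 0.60, 0.29, −0.09 and −0.29 with control serum and 0.73, 0.74, 0.65, 0.73 and 0.74 with 8 Gy serum. The 8 Gy arrays were close together and above every control array, 2 of which came within 0.05 of the lowest. The change was 0.49 ± 0.15 (adjusted p = 0.0125), and 0.88 ± 0.14 (adjusted p = 5.58e-05) on the dimmer probe. Without slide 5, which carried the 2 lowest controls, the brightest probe changed by 0.21 (adjusted p = 0.160). Mki67, the proliferation marker that coats mitotic chromosomes, fell by 0.31 ± 0.09 (adjusted p = 0.00826) and the condensin subunit Ncapd2 by 0.36 ± 0.10 (adjusted p = 0.00837) on their brightest probes. Without slide 4 these changes were −0.15 (adjusted p = 0.242) and −0.17 (adjusted p = 0.241). Ncapg, another condensin subunit, changed by 0.04 ± 0.19 and the cytokinesis scaffold Anln by −0.04 ± 0.17, neither past the threshold.

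For 5 members the probes of 1 gene went in different directions with at least 1 of them called, which leaves the direction of these genes uncertain. Mki67 had a probe called in each direction. On its brightest probe the signals were 3.95, 3.85, 3.96, 3.72 and 3.59 with control serum and 3.50, 3.49, 3.59, 3.49 and 3.43 with 8 Gy serum, which is lower. On its dimmer probe they were 1.21, 0.96, 1.07, 0.72 and 0.68 with control serum and 1.43, 1.41, 1.55, 1.22 and 1.19 with 8 Gy serum, a rise of 0.43 ± 0.12 (adjusted p = 0.00715) with control replicate 1 just inside the 8 Gy range.

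Ncapd2 had signals of 2.99, 2.95, 2.76, 2.65 and 2.53 with control serum and 2.56, 2.27, 2.51, 2.49 and 2.26 with 8 Gy serum on the brightest probe. On the dimmer probe they were 0.76, 0.23, 0.25, −0.31 and −0.12 against 0.59, 0.41, 0.65, 0.46 and 0.23, a change of 0.31 ± 0.16 (adjusted p = 0.123) that passed no threshold. Cenpf had signals of 2.70, 2.42, 2.23, 2.40 and 2.43 against 2.26, 2.00, 2.03, 1.92 and 2.01 on the brightest probe and of −4.38, −3.78, −3.84, −4.45 and −4.60 against −3.85, −3.89, −3.79, −4.11 and −3.81 on the dimmer one (0.32 ± 0.16, adjusted p = 0.0984). In both genes only the brighter probe was called, and the dimmer probe pointed the other way with overlapping groups.

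Anln showed the reverse, with the dimmer probe called. Its signals were −3.66, −3.73, −3.21, −4.14 and −3.95 with control serum and −3.06, −2.86, −3.15, −3.51 and −3.54 with 8 Gy serum (0.51 ± 0.17, adjusted p = 0.0182). This call was lost with array-median scaling, quantile normalisation, cyclic loess and normexp. The brightest Anln probe gave −0.04, −0.91, 0.37, −0.32 and −0.24 against −0.11, −0.47, −0.18, −0.16 and −0.41, with complete overlap. The dimmer Cenpe probes gave 0.01 ± 0.14 (−1.96, −2.58, −1.90, −1.82 and −1.86 against −1.95, −1.95, −2.13, −2.0 and −2.05) and 0.29 ± 0.23 (−2.94, −3.87, −2.22, −3.11 and −3.12 against −2.46, −2.84, −2.47, −3.20 and −2.86). Neither dimmer Cenpe probe was called, so the fall of Cenpe rested on 1 of 3 probes.

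Across genes with several probes, the change with 8 Gy serum was above that of the brightest probe in 13 of 15 dimmer probes. The change also varied with brightness over the whole array. With the tested probes in 4 classes of equal size by mean signal, the median log2 change was 0.07, 0.05, −0.07 and −0.22 from the dimmest to the brightest, and in the brightest class 44.5% of probes were called lower and 10.7% higher. That class held 22 of the 52 tested member probes, of which 12 were called lower and 1 higher. In the next class down, 3 of 18 member probes were lower and 4 higher, where 29.7% of all probes were lower and 20.8% higher. In the one below it 1 of 10 was lower and 4 higher, where 20.9% of all probes were lower and 28.1% higher. The part of brightness in the members' changes was not tested.

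**Figure D4:**
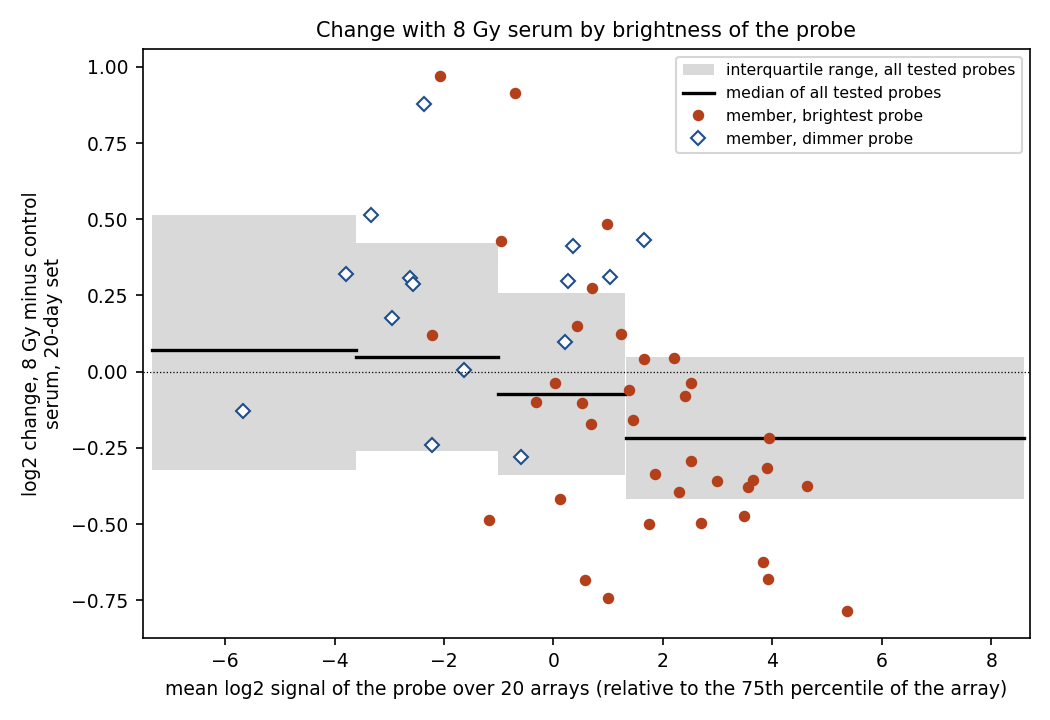
Log2 change with 8 Gy serum against control serum (20-day set) of the 52 member probes against their mean log2 signal over 20 arrays (filled circles, brightest probe of a gene; open diamonds, dimmer probes). Black lines are the medians and grey bands the interquartile ranges of all tested probes in 4 classes of brightness; the median falls from 0.07 in the dimmest to −0.22 in the brightest class.

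In the comparison of 4 Gy serum with control serum in the 10-day set, 0 of 37 members passed the threshold in either direction by limma, where 3.96% of named genes rose and 0.953% fell. At an unadjusted p under 0.05 there were 5 of 37 members, a smaller share than the 2608 of 12909 named genes. The median change was 0.07 for the members, against 0.01 for all named genes. The smallest p-values were those of Bub1b (0.45 ± 0.15, adjusted p = 0.0834), Cenpa (0.65 ± 0.21, adjusted p = 0.0845), the spindle assembly factor Tpx2 (0.46 ± 0.16, adjusted p = 0.0899) and Kif20a (0.36 ± 0.13, adjusted p = 0.0993). Cenpa was at 0.63, 0.03, 0.25, 0.09 and 0.50 with control serum and at 0.74, 0.65, 1.06, 1.44 and 0.85 with 4 Gy serum. It was the only member without overlap between these groups, as were 4.3% of named genes in this direction and 3.21% in the other. Among dimmer probes, that of Bub1 was called higher, with signals of −2.52, −2.67, −2.53, −2.49 and −2.09 against −2.03, −1.90, −0.99, −0.91 and −1.13 (1.07 ± 0.19, adjusted p = 0.0118). The 3 highest of these arrays shared slide 3, and the brightest Bub1 probe changed by 0.14 ± 0.15 (adjusted p = 0.645).

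On slide 2 all 37 members were higher on the 2 arrays with 4 Gy serum than on the 1 control array, by 0.05 to 0.36 with a median of 0.21, while 60.2% of all named genes were higher with a median of 0.03. Control replicate 5, the control array of that slide, had the lowest member median of the 10-day arrays (−0.02). A fit without slide 2 called 4 members higher (10.8%) and 2 lower (5.41%), about the shares of all tested probes in that fit (10.3% and 7.05%). Fits without 4 Gy replicate 1 or 2 called 3 (8.11%) and 2 (5.41%) members higher, where 5.99% and 6.05% of probes were higher. The summed signal of 8 skeletal muscle markers was 7.27 to 10.6 with 4 Gy serum and 4.13 to 6.35 with control serum, with 0 of 6 tested markers called. Of the 8, 6 were well above background on all 5 arrays of each 10-day group, and Ckm on no 10-day array. Of 17 macrophage markers 3 were called higher. Their part in the members' values was not tested.

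The difference between the responses to 8 Gy and 4 Gy serum, tested as an interaction in the same fit, was called lower for 9 members and higher for 3. Of all named genes 24.8% were lower and 10.7% higher, again close to the members' shares of 24.3% and 8.11%. Lower were Mad2l1 (−1.05 ± 0.24, adjusted p = 0.00255), Kif20a (−0.86 ± 0.18, adjusted p = 0.00113), Bub1, Kif11, Spc25 (−0.71 ± 0.14, adjusted p = 0.000820), Tpx2, Birc5, Cenpe and Prc1. Higher were Kif2c (0.94 ± 0.23, adjusted p = 0.00435), Hmmr (0.89 ± 0.29, adjusted p = 0.0234) and Cdc25c (0.61 ± 0.17, adjusted p = 0.00979). Spc25 shows the pattern of the first group, at 1.87, 1.5, 1.66, 1.55 and 1.52 with control serum and 1.74, 1.59, 1.92, 2.11 and 1.81 with 4 Gy serum in the 10-day set. Its change there was 0.21 ± 0.10 (adjusted p = 0.228), against −0.50 in the 20-day set. Mad2l1 was at 0.93, 0.68, 0.81, 0.75 and 0.81 with control serum and 0.99, 0.89, 1.15, 1.42 and 1.08 with 4 Gy serum, where 1 of the 5 arrays, replicate 2, overlapped the controls. Kif20a was at 2.70, 2.24, 2.38, 2.42 and 2.26 with control serum and 2.47, 2.59, 2.81, 3.19 and 2.75 with 4 Gy serum, with control replicate 1 inside the 4 Gy range. Neither passed the threshold in the 10-day set, so each difference joins a fall in one set to an uncalled higher mean in the other. Cdc25c, which rose with 8 Gy serum, was at −0.40, −0.75, −0.58, −0.70 and −0.93 with control serum and −0.75, −0.84, −0.94, −0.64 and −1.12 with 4 Gy serum, with overlapping groups and a lower mean. Called under all 5 alternative settings named above were Mad2l1, Kif20a and Spc25. With the replicate number as a block 14 members were lower (21.6% of all tested probes), without control replicate 1 of the 10-day set also 14 (19.3% of probes), and the 3 higher calls fell to 0 with the slide as a random block or without slide 1 or slide 6. Quantile normalisation and cyclic loess each left 5 lower (13.5%) beside 3 higher, where 17.4% and 17.8% of probes were lower.

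Between 8 Gy serum of the 20-day set and 4 Gy serum of the 10-day set, 24 of 37 members were lower and 0 higher, where 30.3% of named genes were lower and 29.5% higher. The median difference was −0.53 for the members and −0.01 for all named genes. Of 22 members every 20-day array lay below every 10-day array (27.6% of named genes), and none lay wholly above (27.7%). The 0 higher was also found under each alternative setting and without each array or slide, and the number lower ranged from 18 to 29. Of all tested probes 17.6% to 33.6% were lower and 18.2% to 32.8% higher in these fits. Dose, set, slides and scan day change together here and cannot be told apart. All 17 tested macrophage markers were higher in the 20-day set in the irradiated cultures (median 3.85), as in the controls (median 4.21). Skeletal muscle markers were lower in the 20-day set, 5 of 6 in the irradiated cultures (median −1.47) and 6 of 6 in the controls (median −1.90). Among them Myog and Myh3 were well above background on no 20-day array and were tested only through the 10-day arrays. Their lower direction was thus set by the filter, as was the higher direction of Spi1 among the macrophage markers. Of 16 fibroblast markers 8 were lower and 4 higher in the irradiated cultures, and 10 lower and 3 higher in the controls. The part of these marker changes in the members' values was not tested.

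By role, the lower members of the irradiated cultures took in Aurkb (−1.2 ± 0.19, adjusted p = 2.63e-05), Bub1b (−1.10 ± 0.15, adjusted p = 4.02e-06) and Kif11 (−1.07 ± 0.14, adjusted p = 4.51e-06), which had the largest differences. Kif11 was at −0.92, −0.94, −0.58, −0.34 and −0.69 with 4 Gy serum and at −1.87, −1.89, −1.61, −1.71 and −1.72 with 8 Gy serum, wholly apart. Foxm1 was at 0.89, 0.78, 1.02, 1.15 and 0.91 against 0.12, −0.13, 0.03, 0.02 and −0.15 (−0.97 ± 0.10, adjusted p = 2.92e-07). The condensin gene Ncapd2 (−0.94 ± 0.10, adjusted p = 4.31e-07) and the midbody kinesin Kif23 (−0.93 ± 0.10, adjusted p = 3.33e-07) followed. Of the 4 checkpoint genes 3 were called, all but Bub1 (−0.18 ± 0.15), as were 3 of the 4 chromosome structure genes, all but Ncapg. Of the anaphase group none was, with −0.29 ± 0.13 for Cdc20, −0.30 ± 0.13 for Ube2c and 0.14 ± 0.14 for Pttg1.

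In control cultures the members were split between the sets, with 17 lower and 7 higher in the 20-day controls, where 29.8% of named genes were lower and 40.3% higher. The median difference was −0.30, against 0.10 for all named genes. Kif2c (−1.64 ± 0.16, adjusted p = 4.95e-08), Top2a (−1.17 ± 0.15, adjusted p = 1.34e-06), Foxm1 (−1.16 ± 0.10, adjusted p = 1.11e-08) and Hmmr (−1.08 ± 0.21, adjusted p = 0.000137) were the lowest. Higher were Kif20a (0.66 ± 0.13, adjusted p = 0.000131), Birc5 (0.65 ± 0.12, adjusted p = 9e-05), Bub1 (0.64 ± 0.15, adjusted p = 0.000700), Mad2l1, Pttg1, Spc25 and the brightest probe of Cenpe (0.31 ± 0.11, adjusted p = 0.0173). Both dimmer Cenpe probes were called lower (−0.72 ± 0.14, adjusted p = 0.000140, and −0.95 ± 0.23, adjusted p = 0.00107), so the direction of Cenpe is uncertain here. The dimmer probes of Cdk1 (−0.80 ± 0.18, adjusted p = 0.000771) and Cenpf (−0.71 ± 0.16, adjusted p = 0.000532) were also called lower, while their brightest probes were at 0.34 ± 0.23 and 0.10 ± 0.12 and passed no threshold. Of 11 members every 20-day control array lay below every 10-day control array (21.7% of named genes), and of Birc5, Bub1 and Kif20a every one lay above (31.6%). Foxm1 was at 1.24, 0.98, 1.04, 0.89 and 0.79 in the 10-day controls and at 0.17, −0.39, −0.17, −0.25 and −0.21 in the 20-day controls, wholly lower. Top2a was at 1.72, 1.41, 1.38, 1.2 and 1.29 in the 10-day controls, all above the 20-day values given before. The brightest Cenpe probe turned to −0.051 with quantile normalisation, −0.049 with cyclic loess and −0.10 with normexp. With either of the first 2 settings the higher calls numbered 3 (8.11%) beside 21 lower (56.8%). Of all tested probes 32.7% and 32.9% were higher and 33.5% and 33.9% lower under them. Birc5, Pttg1 and Spc25 also lost their calls with those settings. Without slide 1, which held 4 of the 5 control arrays of the 10-day set, 6 members were lower and 6 higher (16.2% each), where 19.9% of all tested probes were lower and 23.0% higher. Called in all 5 alternative settings were 12 of the 17 lower members, among them Foxm1, Kif2c and Top2a, and Kif20a of the higher ones.

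**Figure D5:**
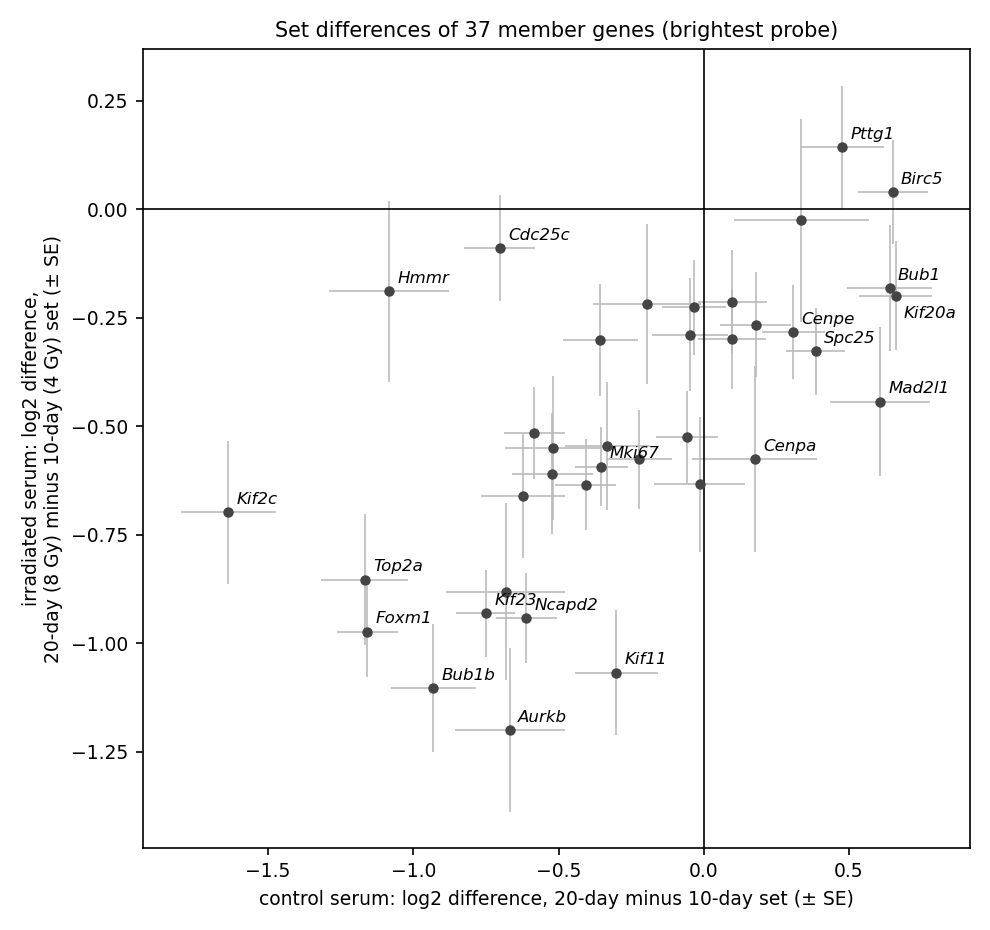
Log2 difference between the 20-day and the 10-day set for the 37 members, in control cultures (horizontal axis) and in cultures with irradiated serum (vertical axis, 8 Gy against 4 Gy), as points with ± SE. All points but Pttg1 (0.14) and Birc5 (0.04) lie below 0 on the vertical axis, while on the horizontal axis they lie on both sides of it.

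Other genes of G2/M were counted from 5 lists with 98 tested genes. With 8 Gy serum 38 were lower (38.8%, against 32.8% of named genes) and 10 higher (10.2%, against 16.1%), with a median change of −0.20. Kinetochore and centromere genes had 14 of 29 lower and 0 higher, led by the centromere proteins Cenpw (−0.77 ± 0.09, adjusted p = 2.07e-06) and Cenpp (−0.86 ± 0.10, adjusted p = 2.62e-06) and the centromere-licensing factor Mis18a (−0.49 ± 0.08, adjusted p = 3.67e-05). Genes of cohesin, condensin, separase and the anaphase-promoting complex had 14 of 21 lower and 3 higher. The lower ones included the cohesin subunit Rad21 (−0.51 ± 0.07), the condensin subunit Smc4 (−0.49 ± 0.07) and the complex subunit Cdc26 (−0.56 ± 0.10), and the higher ones were Espl1, which encodes separase (0.69 ± 0.12), the condensin subunit Ncaph (0.63 ± 0.11) and the complex activator Fzr1 (0.32 ± 0.08). Spindle and cytokinesis genes had 5 of 22 lower, among them Kif22 (−1.04 ± 0.13), Ect2 (−0.72 ± 0.13) and Kif18a (−0.53 ± 0.13), and 4 higher, among them Tacc3, Kif20b and Cdca2.

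Of 16 cyclins, kinases and regulators of cyclin-dependent kinases, the kinase Pbk (−0.67 ± 0.10) and the kinase subunit Cks2 (−0.50 ± 0.10) were lower and Cit, Ccnf and the phosphatase Cdc25a (0.66 ± 0.24) higher. These were 12.5% lower and 18.8% higher, where 32.8% of named genes were lower and 16.1% higher with 8 Gy serum. Of 10 genes of the DREAM and B-MYB complexes, the MuvB subunits Lin9 (−0.85 ± 0.11, adjusted p = 5.44e-06), Lin52 and Lin54 were lower and 0 higher. The lower share of 30% was near the 32.8% of named genes. With 4 Gy serum 3 of the 98 were higher (3.06%, against 3.96% of named genes), Pbk, Cdc25b and Cenpp, and 0 lower (against 0.953%). At an unadjusted p under 0.05 there were 16 of the 98, against 2608 of 12909 named genes. Between the sets, 57 of 98 were lower and 7 higher in the cultures with irradiated serum, where 30.3% of named genes were lower and 29.5% higher. In the controls 39 were lower and 26 higher, where 29.8% of named genes were lower and 40.3% higher.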

How the data were processed

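Total RNA of 20 samples was labelled with Cy3 and hybridised to 1-colour Agilent mouse arrays, per the labels. The authors' deposited scanner files hold processed intensities (background-subtracted and detrended within the array, not scaled between arrays), median intensities of spot and background, and quality flags of another kind (0 or 1), extracted with Agilent Feature Extraction 10.5.1.1 per the file headers; the submitters' processing notes name version 11.0. The authors' deposited table holds log2 values centred within each set and served as an alternative only, with a correlation of at least 0.996 on every array. Groups and replicate numbers come from the sample titles.

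Flagged spots were left out, spots of a probe averaged, and the log2 of the 75th percentile of the array subtracted. Tested were the 26233 probes that the files call well above background throughout 1 or more groups of 5 arrays. Groups were compared with limma 3.58.1 in R 4.3.3 (lmFit and eBayes, two-sided, 1 fit with 4 group means), with Benjamini-Hochberg adjustment over all tested probes and a threshold of 0.05. Errors are SE of the fit, n = 5 arrays per group. Background shares are over named genes by their brightest probe. RefSeq accessions of GRCm38.p6 named 24844 probes; gene positions are those of the gene, not of the probe. In simulated data the test of the 8 Gy comparison recovered 75 of 100 probes changed by a log2 of 1 and 40 of 100 changed by 0.5. The simulation had 25944 probes with independent noise on each array, no slide effect and all other probes unchanged. On the real arrays slides differed and many more probes were called, so these shares do not give the recovery there.

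Deviations of same-numbered arrays had correlations of 0.13 to 0.40 in the 20-day set and −0.05 to 0.17 in the 10-day set. In the 20-day set control replicates 2, 3 and 4 correlated best with an array of another number, so a pairing is uncertain. The main fit used no pairing. Alternatives were other scalings (array median, quantile, cyclic loess), normexp (offset 50, on median signals), filters on dim probes, flagged spots kept, slide and replicate number as blocks, 1 probe per gene, only the groups compared, single arrays left out and, added after seeing the data, single slides left out. Members and gene lists were chosen with earlier results of these data known. All members could be named; values on every array were given for the 8 lower and 4 higher members with the smallest p, for members whose probes disagreed in sign and for a few others picked after their values were seen; of other lists the 3 called genes with the smallest p per direction were named for the comparisons described.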

Additional observations from a re-analysis of the deposited data

Results flagged for a closer look

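Of 148 sets of 5 arrays (37 members in 4 groups), 7 held 1 array far from the other 4; chance gives about 1 in 20. In the 20-day controls this was replicate 1 for Kif20a (3.43, others 2.89 to 3.02), Ckap2 (0.301, others 0.948 to 1.09) and Ttk (−3.79, others −2.51 to −2.29). In the 10-day controls it was replicate 1 for Kif23 (2.10, others 1.59 to 1.70) and Kif11 (−0.705, others −1.08 to −1.0). In the 4 Gy group it was replicate 4 for Anln (0.498, others 0.177 to 0.268), and in the 8 Gy group replicate 3 for Top2a (0.648, others 0.728 to 0.743).

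The response to 8 Gy serum differed from that to 4 Gy serum by the interaction test of limma in 12 members. The log2 difference was −1.05 for Mad2l1, −0.860 for Kif20a, −0.822 for Bub1, −0.767 for Kif11, −0.713 for Spc25, −0.620 for Tpx2, −0.612 for Birc5, −0.592 for Cenpe and −0.469 for Prc1. It was 0.937 for Kif2c, 0.894 for Hmmr and 0.613 for Cdc25c. The call of Tpx2 was lost without any 1 of 10 arrays, for example at −0.48 (adjusted p = 0.0613) without 4 Gy replicate 4.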

How the results depend on the processing

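With 8 Gy serum, 4 members were higher, 2 with scaling to the array median; this scaling moved the median change of all probes from −0.06 to −0.20. The 15 lower members became 7 with quantile normalisation, 9 with cyclic loess and 8 with the slide as a random block (correlation 0.35). With 4 Gy serum, 0 members higher became 2 with the replicate block (Bub1b and Cenpa), 1 with only the groups compared and 1 in the authors' deposited table. These are 5.41%, 2.70% and 2.70% of members, where 4.68%, 7.77% and 7.72% of all tested probes were higher. For the difference of responses, 3 higher became 0 with the slide as a random block, and 9 lower became 5 with quantile normalisation, 5 with cyclic loess and 14 with the replicate block. In the control cultures 7 higher in the 20-day set became 3 with quantile normalisation and 3 with cyclic loess (8.11% each), where 32.7% and 32.9% of probes were higher. The replicate block kept all 19 calls of the 8 Gy comparison, with 4 higher and 17 lower.

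With single arrays left out, members called with 4 Gy serum ranged from 0 to 3 higher, with 8 Gy serum from 13 to 16 lower and 4 to 5 higher, and for the difference of responses from 8 to 14 lower. Between the sets they ranged from 16 to 19 lower and 6 to 8 higher in controls and from 20 to 26 lower in irradiated cultures. Of all tested probes 0.14% to 6.05% were higher with 4 Gy serum, and 25.1% to 28.6% lower and 18.8% to 21.9% higher with 8 Gy serum. For the difference 18.7% to 23.5% were lower. Between the sets 30.8% to 33.3% were lower and 33.8% to 36.2% higher in controls, and 26.6% to 28.3% lower in irradiated cultures. With single slides left out the ranges were 0 to 4 higher and 0 to 2 lower with 4 Gy serum, 11 to 16 lower and 2 to 4 higher with 8 Gy serum, 6 to 13 lower and 0 to 4 higher for the difference, 6 to 19 lower in controls and 18 to 25 lower in irradiated cultures. Of the 19 members called with 8 Gy serum, 9 kept the call in every such fit. With slides left out, 20.8% to 29.1% of all tested probes were lower and 13.0% to 23.2% higher with 8 Gy serum. With 4 Gy serum 10.3% were higher and 7.05% lower without slide 2, and 0% of either without slide 3. Slide 1 aside, 14.7% to 24.4% were lower and 9.55% to 21.0% higher for the difference. Between the sets 31.1% to 33.0% were lower in controls and 19.1% to 27.6% in irradiated cultures. Without slide 1 the 10-day controls were 1 array, whose spread was taken to be that of the other groups, and the cause of the shifts was not tested. Reversals between the sets were Cenpe in controls (−0.051 with quantile normalisation, −0.049 with cyclic loess, −0.10 with normexp), Ube2c in controls (−0.49 without slide 4 to 0.14 without slide 1) and the dimmer Cdk1 probe under normexp (0.18 in controls, 0.088 in irradiated cultures). The number of arrays and their slides limit all comparisons.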

Other observations

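Genes of DNA replication, the phase before G2, were counted for comparison, with 43 of 44 tested. With 8 Gy serum 20 were lower and 4 higher, where 32.8% and 16.1% of named genes were. Lowest in p were Slbp, which encodes the histone stem-loop binding protein (−0.55 ± 0.05, limma adjusted p = 1.06e-07), the origin recognition gene Orc6 (−0.82 ± 0.08, adjusted p = 2.24e-07) and the cyclin gene Ccne2 (−1.08 ± 0.12, adjusted p = 7.87e-07), while Mcm3 (0.40 ± 0.09), Mcm2 (0.53 ± 0.15) and the flap endonuclease gene Fen1 (0.35 ± 0.10) rose. Between the sets, 19 of 43 (44.2%) were lower and 0 higher in the cultures with irradiated serum. Of named genes 30.3% were lower and 29.5% higher there. The lower ones included Rrm2, a subunit of ribonucleotide reductase (−1.07 ± 0.08, adjusted p = 2.29e-09). In the controls 12 (27.9%) were lower and 18 (41.9%) higher, near the 29.8% and 40.3% of named genes.

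In the cultures with irradiated serum, the other G2/M genes lower in the 20-day set included the B-MYB gene Mybl2 (−0.87 ± 0.08, adjusted p = 2.29e-08), the separase gene Espl1 (−1.24 ± 0.12, adjusted p = 4.72e-08), the centromere chaperone gene Hjurp (−1.16 ± 0.12, adjusted p = 1.06e-07) and the cyclin gene Ccna2 (−0.88 ± 0.11, adjusted p = 1.27e-06). Among those higher were the anaphase-promoting complex subunits Cdc16 (0.66 ± 0.08), Cdc26 (0.69 ± 0.10) and Anapc4 (0.50 ± 0.09).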
